A study of Mus musculus with 8 samples.

Results

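Hair follicle stem cells and the factors that regulate the hair cycle were followed through 10 genes in mouse ear skin: Lgr5, Lgr6, Cd34, Lhx2, Nfatc1, Sostdc1, Lrig1, Msx2, Foxn1 and Hoxc13. They were taken as a named list, out of 41388 genes in the count tables, and all 10 had enough counts to test. Adult wild-type (WT) C57Bl/6 mice gave whole ear skin, 4 libraries from mice that received the ethanol vehicle and 4 from mice that received MC903. MC903 is calcipotriol, an analog of vitamin D, put on the skin at 1 nmol each day over 12 days, and repeated use leaves mouse skin inflamed and itchy. Each vehicle library held 14223908 to 16837221 counts, and each MC903 library 12310466 to 15575518.

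The hair follicle is a down-growth of the epidermis that passes through cycles of growth, regression and rest. Between growth phases its stem cells sit in the bulge and the hair germ. Wnt signals, strengthened by R-spondins acting through Lgr receptors, favour growth, whereas bone morphogenetic proteins (BMPs) hold bulge cells at rest. Cells that leave this pool reach the matrix, where homeobox and forkhead factors switch on the keratins of the hair shaft and its sheaths.

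Of the 10 genes, 4 fell in MC903 skin (Lgr6, Lhx2, Lrig1 and Cd34), 2 rose (Hoxc13 and Sostdc1) and 4 did not pass the test (Lgr5, Msx2, Nfatc1 and Foxn1). Among all 16105 genes tested, 20.2% were called lower, 21.3% higher and 41.5% either way at an adjusted p of 0.05. Whether the 10 genes, or any list below, differ from all genes in this share was not tested. Values of the 2 groups did not overlap for the same 6 genes, 4 lower and 2 higher, beside 18.9% lower, 19.8% higher and 38.7% in all among the genes tested. Their median log2 fold change was -0.60, with 7 of 10 below 0, and that of all genes tested was -0.03. The treatment check, Cyp24a1, which the vitamin D receptor switches on, rose from 18.8 ± 1.73 to 3837 ± 403 CPM, the counts scaled to a fixed library total (mean ± SD, n = 4). All CPM values are adjusted by TMM (trimmed mean of M-values) factors. The samples were whole tissue, so fewer cells of a type and less RNA per cell cannot be told apart for any gene described.

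**Figure D1:**
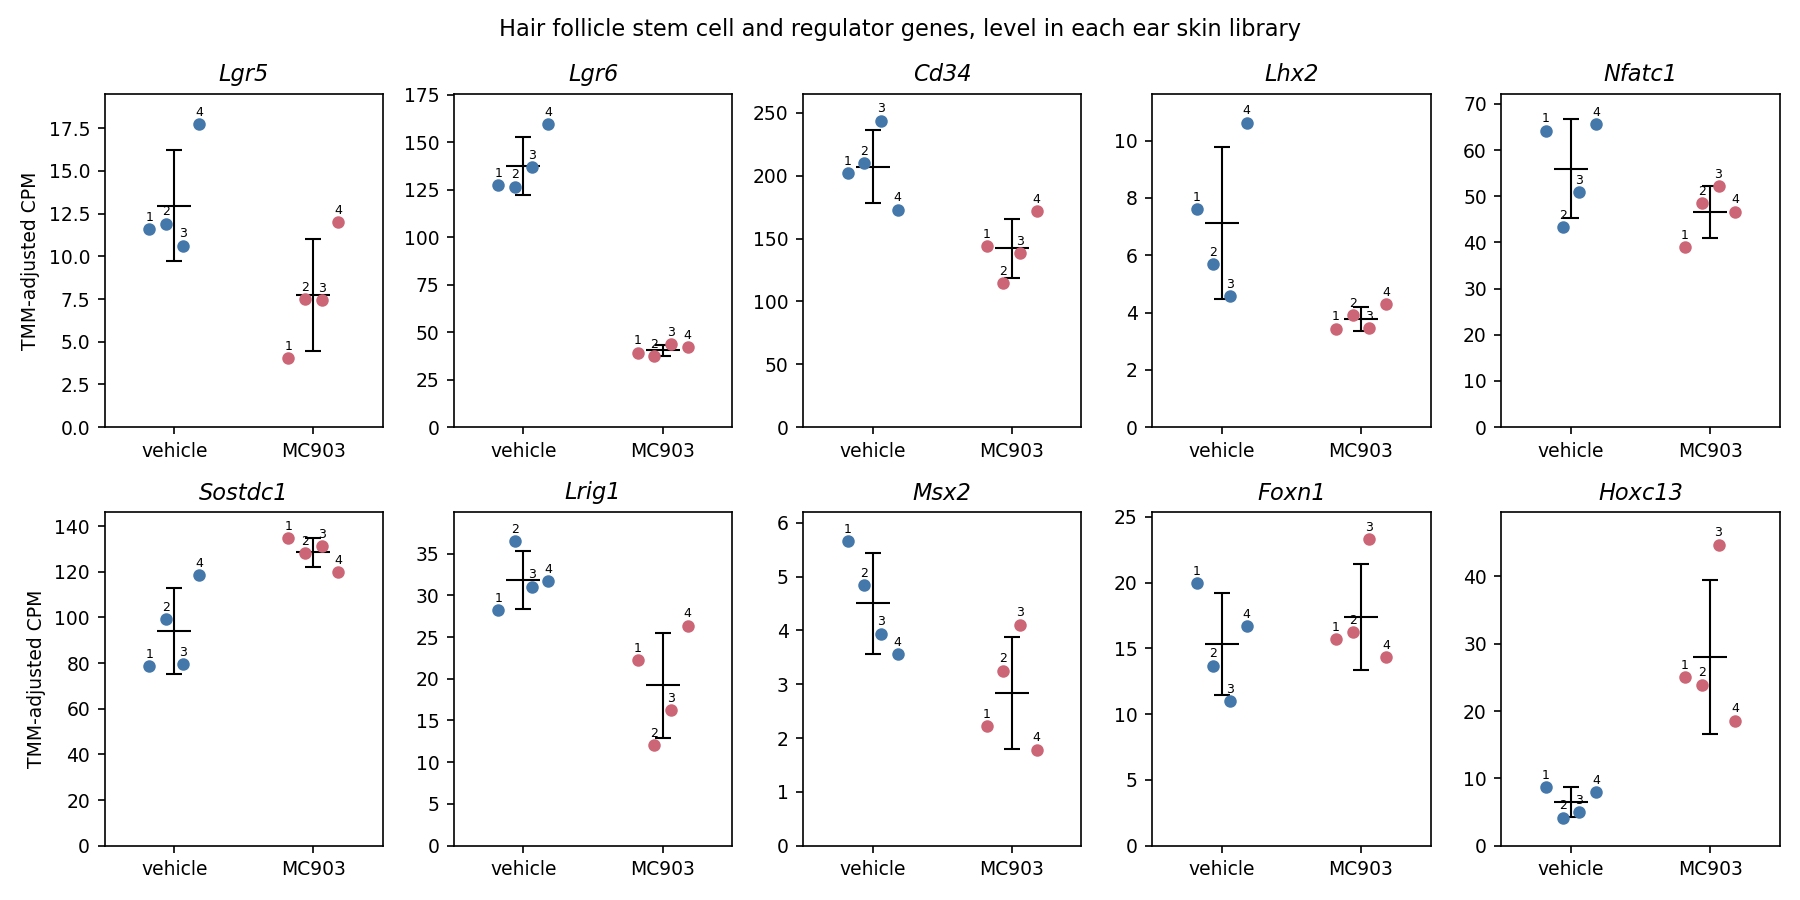
Each panel plots 1 gene, with the TMM-adjusted CPM of each library on the vertical axis from 0; numbers beside points are replicate numbers, bars the mean ± SD (n = 4). Lgr6 lay between 37.3 and 43.7 CPM in MC903 skin against 126.6 to 159.5 in vehicle, Hoxc13 was above every vehicle library in all 4 MC903 libraries, and Lgr5, Nfatc1, Foxn1 and Msx2 overlapped between groups.

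The stretch of 250 bases before the annotated start is shown for the 4 genes that fell. These were all called lower and differ in the kind of promoter they carry. Sequences are from RefSeq on GRCm38.p6, which has the coordinates of mm10, and are written 5′ to 3′ on the strand of the gene. Capitals mark GC boxes (GGGCGG or its complement) and CCAAT boxes. Lgr6 lies at chr1:135105277-135105526 on the minus strand, Cd34 at chr1:194938571-194938820 on the plus strand, Lhx2 at chr2:38339031-38339280 on the plus strand (the first of its 2 listed starts) and Lrig1 at chr6:94700146-94700395 on the minus strand.
Lgr6: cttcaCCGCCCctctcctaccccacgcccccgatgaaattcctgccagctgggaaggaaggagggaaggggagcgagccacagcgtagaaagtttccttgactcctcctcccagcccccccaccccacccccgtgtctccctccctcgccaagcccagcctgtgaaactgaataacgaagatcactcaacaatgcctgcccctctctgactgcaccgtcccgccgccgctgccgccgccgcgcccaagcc
Cd34: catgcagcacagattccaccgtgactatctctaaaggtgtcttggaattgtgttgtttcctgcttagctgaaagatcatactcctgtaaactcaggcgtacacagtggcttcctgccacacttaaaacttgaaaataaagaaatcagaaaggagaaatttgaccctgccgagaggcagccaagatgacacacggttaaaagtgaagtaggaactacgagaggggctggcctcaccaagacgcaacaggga
Lhx2: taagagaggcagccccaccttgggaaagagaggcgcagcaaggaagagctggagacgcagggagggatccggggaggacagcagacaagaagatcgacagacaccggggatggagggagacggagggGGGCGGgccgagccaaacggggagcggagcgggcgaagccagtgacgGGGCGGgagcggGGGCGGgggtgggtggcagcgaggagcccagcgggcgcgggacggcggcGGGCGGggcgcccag
Lrig1: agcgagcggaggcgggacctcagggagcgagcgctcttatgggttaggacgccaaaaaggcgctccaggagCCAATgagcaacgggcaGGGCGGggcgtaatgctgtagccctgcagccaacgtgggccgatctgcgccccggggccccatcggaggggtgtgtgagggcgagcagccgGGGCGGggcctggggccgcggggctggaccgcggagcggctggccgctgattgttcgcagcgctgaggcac

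The promoters of Lgr6, Lhx2 and Lrig1 were rich in G and C, at 65.2%, 72.8% and 71.6%, with 16, 25 and 26 CpG dinucleotides, whereas the Cd34 promoter had 46.4% and 6 CpG. The medians over 32851 promoters of the same length were 52.4% and 6. GC boxes numbered 1 in Lgr6, 4 in Lhx2 and 2 in Lrig1, none was found in Cd34, and 32.7% of all promoters held one. The other listed start of Lhx2, at chr2:38351058-38351307, had no GC box, with 68.4% G and C and 24 CpG. A CCAAT box was found in Lrig1 alone of the 4, and in 33.8% of all promoters. On both strands, neither the TCF/LEF cores CTTTGAT and CTTTGAA (7.48% of all promoters), nor the homeodomain core TAATTA (4.84%), the TATA box TATAAA (12.4%) or the half-site AGGTCA of nuclear receptors (14.02%) was found in these 4 windows. A match says only that these letters are there. Of the 10 genes, 6 were searched: Nfatc1, on chromosome 18, was left out, and Lgr5, Sostdc1 and Hoxc13 had no promoter listed. The other 2 genes searched, Foxn1 and Msx2, did not pass the test of expression. Each of these held 1 GC box, 1 CCAAT box and 1 TAATTA core, with 63.2% G and C and 7 CpG in Foxn1 and 61.6% and 16 CpG in Msx2. The Msx2 window, on the minus strand, ended at 53473030, inside the gene as counted, which reached 53473074. Bases after the Foxn1 start had no match in the transcripts of that gene in another annotation, GENCODE. The GC box was thus found in genes that fell and in genes that were not called.

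Lgr5 and Lgr6 are receptors for R-spondins. Lgr5 marks cycling cells of the lower bulge and hair germ, and Lgr6 marks cells of the upper follicle, with progeny in sebaceous gland and epidermis. Lgr6 (ENSMUSG00000042793, chromosome 1, 134983301 to 135105276 in mm10) had 127.3, 126.6, 136.8 and 159.5 CPM in vehicle replicates 1 to 4. It had 39.1, 37.3, 43.7 and 42.2 CPM in MC903 replicates 1 to 4. The groups lay far apart, with little spread inside either. The log2 fold change was -1.76 ± 0.12 (SE; adjusted p = 2.19e-06), or 3.39-fold lower, and 1.496% of all genes tested had a lower value. Over 17 alternative settings it ran from -1.85 to -1.68.

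Lgr5 (ENSMUSG00000020140, chromosome 10, 115450311 to 115587780) was scarcer, at 11.6, 11.9, 10.6 and 17.7 CPM in vehicle and 4.05, 7.499, 7.42 and 12.01 CPM in MC903 replicates 1 to 4. Vehicle replicate 4 was the highest of all, and MC903 replicate 4 lay within the vehicle range. The log2 fold change, -0.75 ± 0.28, did not pass the test (adjusted p = 0.0530; 95% interval, not adjusted for the number of genes, -1.37 to -0.13). It passed without MC903 replicate 4 (-1.04, adjusted p = 0.00872) and under 6 other settings given with the processing limits. Lgr4, the remaining receptor of this group, averaged 184.6 ± 56.3 CPM with vehicle and 139.1 ± 40.5 CPM with MC903 (-0.41 ± 0.26, adjusted p = 0.221). Lgr6 was set against its relatives by the ratio of counts inside each library, which no scaling can alter. These ratios were chosen after the values were seen, so their p-values do not stand as independent tests. Lgr6 had 0.617 to 0.947 counts per Lgr4 count in vehicle and 0.258 to 0.487 in MC903 libraries (difference of log2 ratios -1.34; two-sided exact permutation p = 0.0286, the smallest that 4 against 4 libraries allow, or 0.0429 adjusted over the 3 ratios tested). Per Lgr5 count it had 8.99 to 12.9 counts in vehicle and 3.51 to 9.67 in MC903 libraries, which overlapped (difference -0.94; exact permutation p = 0.0571, adjusted 0.0571).

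Cd34 is a surface glycoprotein of bulge keratinocytes that is also made by endothelium, dermal fibroblasts and mast cells. Cd34 (ENSMUSG00000016494, chromosome 1, 194938821 to 194961292) had 202.0, 210.0, 244.0 and 173.0 CPM in vehicle replicates 1 to 4. In MC903 replicates 1 to 4 it had 144.0, 114.6, 138.5 and 171.7 CPM. The lowest vehicle library and the highest MC903 library, replicate 4 in both groups, were almost level. The log2 fold change was -0.54 ± 0.16 (adjusted p = 0.0171). It no longer passed when vehicle replicate 3 (adjusted p = 0.0511), MC903 replicate 2 (0.0543) or MC903 replicate 3 (0.0519) was left out; over all alternatives the adjusted p ran from 0.00469 to 0.0543. Markers of the other cells that make Cd34 were counted beside it. Of 10 endothelial markers 1 was called higher and none lower (median log2 fold change 0.14; summed level 162.9 to 216.9 CPM in vehicle and 189.04 to 261.1 CPM in MC903 libraries). Of 9 fibroblast markers 1 was higher and 1 lower (median -0.20; 10318 to 14432 and 7075 to 10153 CPM). Of 7 mast cell markers 5 were higher (median 0.70; 392.6 to 446.7 and 561.3 to 922.3 CPM). No marker of these lists was at 0 in either group, and their part in the Cd34 level was not tested. An antisense gene, Gm16897, shares 148 bases of exon with Cd34 but held only 180 counts over all 8 libraries.

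Lhx2 is a LIM homeobox factor that keeps bulge cells in the stem cell state. Lhx2 (ENSMUSG00000000247, chromosome 2, 38339281 to 38369733) had 7.60, 5.69, 4.57 and 10.6 CPM in vehicle and 3.44, 3.92, 3.45 and 4.30 CPM in MC903 replicates 1 to 4. The vehicle libraries were widely spread, while the MC903 libraries lay close together just under the lowest of them. It fell by 0.92 on the log2 scale (SE 0.25, adjusted p = 0.0138) and stayed below an adjusted p of 0.05 in all 17 alternatives. Nfatc1 is a calcineurin-dependent factor that holds bulge cells at rest and acts also in T cells and in the macrophage lineage. Its 64.2, 43.3, 50.8 and 65.6 CPM in vehicle overlapped with the 38.9, 48.5, 52.2 and 46.7 CPM of MC903 skin. Its log2 fold change was -0.27 ± 0.16 (adjusted p = 0.188; 95% interval -0.61 to 0.07), and no alternative called it. Over the same libraries 4 of 8 T cell markers (summed level 70.8 to 96.4 CPM in vehicle and 114.4 to 148.6 CPM in MC903) and 7 of 7 macrophage markers (353.9 to 467.1 and 1071 to 1596 CPM) were higher, and their part in the Nfatc1 level was not tested.

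Lrig1 is a membrane protein that restrains ErbB receptors and marks stem cells at the junction of follicle and sebaceous gland. Lrig1 (ENSMUSG00000030029, chromosome 6, 94604529 to 94700158) had 28.2, 36.5, 31.02 and 31.7 CPM in vehicle and 22.2, 12.1, 16.2 and 26.4 CPM in MC903 replicates 1 to 4. All MC903 libraries were lower, and they varied more among themselves (coefficient of variation 32.9% against 10.8%). The log2 fold change was -0.73 ± 0.21 (adjusted p = 0.0174), and without MC903 replicate 3 the gene was not called (-0.65, adjusted p = 0.0579; range over all alternatives 0.00434 to 0.0579). Its relative Lrig3 also fell (-0.58 ± 0.12, adjusted p = 0.00261), while Lrig2 was at 0.073 ± 0.17 (adjusted p = 0.746), with its sign turned by library sizes alone (-0.015) and by leaving out MC903 replicate 1 (-0.054). Slc25a26, on the other strand, shares 120 bases of exon with Lrig1 and held 996 counts in all; counting by strand was not stated. The sebaceous gland, which this stem cell zone feeds, had 4 of 8 markers lower and none higher (summed level 5162 to 10194 CPM in vehicle and 2945 to 5867 CPM in MC903 libraries).

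Sostdc1 is a secreted protein that blocks BMPs and dampens Wnt signals in the hair germ. It went the other way from most of the list. Sostdc1 (ENSMUSG00000036169, chromosome 12, 36314169 to 36318452) had 78.7, 99.3, 79.4 and 118.4 CPM in vehicle and 134.8, 128.1, 131.2 and 119.8 CPM in MC903 replicates 1 to 4. MC903 libraries were uniform (coefficient of variation 4.995%), and vehicle replicate 4 came within reach of the lowest of them. The rise was small, 1.37-fold (log2 fold change 0.45 ± 0.15, adjusted p = 0.0284). It rested on many choices: the adjusted p was 0.0842, 0.0564 and 0.0839 on leaving out vehicle replicate 1, 2 or 3 in turn, 0.0561 and 0.0668 on leaving out MC903 replicate 2 or 3, and above 0.05 too with library sizes alone (0.171) or with upper quartile factors (0.0617), and the count of called rises among the 10 genes was then 1 in place of 2.

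Msx2 is a homeobox factor of the matrix that acts downstream of BMPs and upstream of Foxn1. It was the least counted of the 10, with 22 to 96 counts per library, or 5.66, 4.84, 3.94 and 3.56 CPM in vehicle and 2.23, 3.25, 4.11 and 1.79 CPM in MC903 replicates 1 to 4. MC903 replicate 3 stood among the vehicle libraries, and the log2 fold change of -0.66 ± 0.27 was not called (adjusted p = 0.0731). Without that library it was (-0.89, adjusted p = 0.0312), which is the only alternative of 17 to call it. Its relative Msx1 fell (-0.92 ± 0.26, adjusted p = 0.0143), although 1 vehicle library, at 6.38 CPM, lay within the MC903 range of 5.17 to 6.49 CPM. Foxn1, the forkhead factor whose loss gives nude mice, had 20.0, 13.7, 10.97 and 16.7 CPM in vehicle and 15.7, 16.3, 23.3 and 14.4 CPM in MC903 replicates 1 to 4. The groups overlapped broadly (log2 fold change 0.19 ± 0.21, adjusted p = 0.496; 95% interval -0.27 to 0.64).

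Hoxc13, the homeobox factor required for normal hair shafts and nails, rose most. Hoxc13 (ENSMUSG00000001655, chromosome 15, 102921103 to 102928814) had 8.72, 4.15, 4.97 and 7.995 CPM in vehicle replicates 1 to 4. It had 25.03, 23.9, 44.7 and 18.6 CPM in MC903 replicates 1 to 4. Every MC903 library was above every vehicle library, and replicate 3 was well above the others. The log2 fold change was 2.11 ± 0.30 (adjusted p = 0.000261), or 4.33-fold with a 95% interval of 2.73 to 6.87, and 97.2% of all genes tested had a lower value. Over 17 alternatives it ran from 1.80 to 2.29 and was always called. Against Foxn1, which acts with it in the hair cortex, Hoxc13 went from 0.303 to 0.479 counts per Foxn1 count in vehicle to 1.29 to 1.92 in MC903 libraries (difference of log2 ratios 1.91; two-sided exact permutation p = 0.0286, or 0.0429 adjusted over the 3 ratios). That ratio too was chosen after the values were seen. The other 8 genes of the Hoxc13 cluster, Hoxc4 to Hoxc12, did not have enough counts to test. They had at most 5 counts in any library, and Hoxc10, Hoxc11 and Hoxc12 had 0 in all 8. A count of 3, the limit that 0 allows, was 0.178 to 0.244 CPM by library totals alone, without TMM factors.

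**Figure D2:**
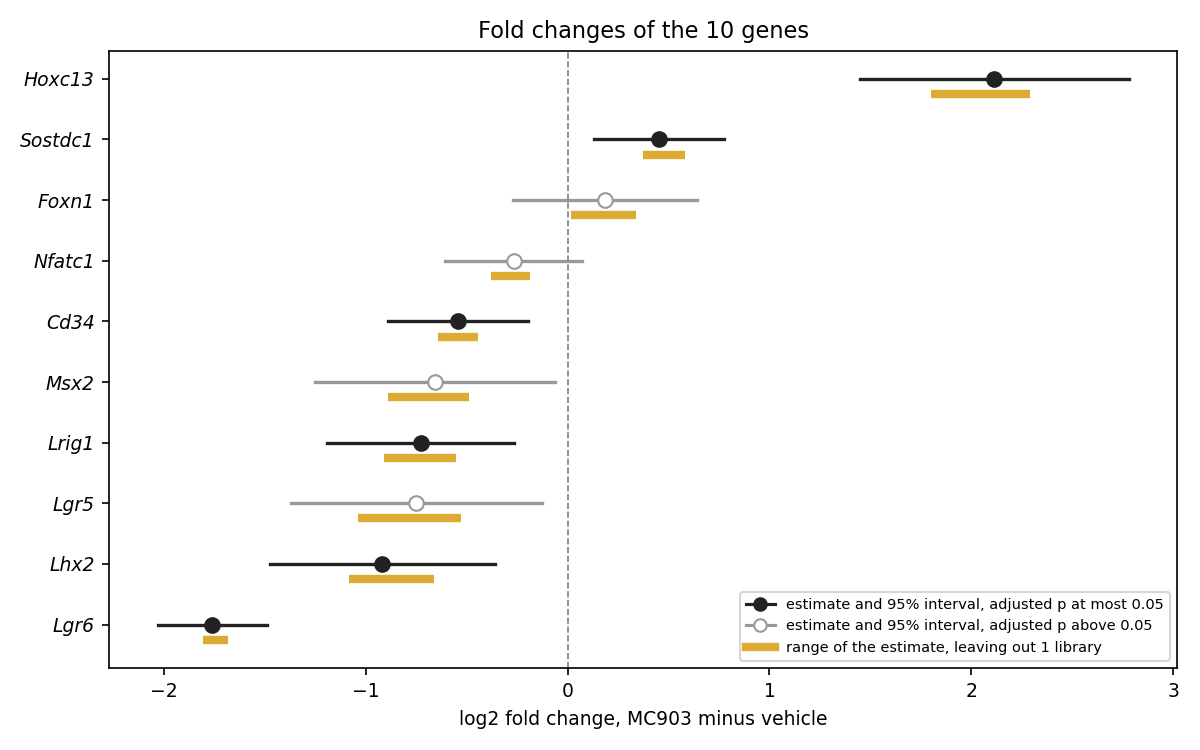
The log2 fold change (MC903 minus vehicle, horizontal axis) of each gene is drawn with its 95% interval, which is not adjusted for the number of genes; filled points passed an adjusted p of 0.05. Yellow bars give the range when 1 library is left out, and none crosses 0; the estimate ran from -1.76 in Lgr6 to 2.11 in Hoxc13.

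Hair shaft, inner root sheath and companion layer genes, which lie downstream of the matrix regulators, split in both lists. Of 14 listed hair shaft genes 9 were tested, of which 2 were higher and 5 lower (median log2 fold change -2.79, beside -0.03 over all genes tested). Over all genes tested 21.3% were called higher and 20.2% lower. Krt85 was not found by name among the counted genes. Krt33b, Krt35, Krt86 and Dsg4 did not pass the count filter, with at most 77 counts in any library. Krt36 and Krt84 rose, both hair-type keratins that nail and tongue papillae also make. Krt36 went from 0.818 ± 0.213 to 96.0 ± 55.2 CPM (6.88 ± 0.43, adjusted p = 1.01e-06) and Krt84 from 2.06 ± 0.419 to 98.1 ± 58.4 CPM (5.56 ± 0.40, adjusted p = 2.52e-06). Like Hoxc13, both were highest in MC903 replicate 3, at 177.8 and 185.0 CPM. That replicate was the highest MC903 library for 5 of the 10 stem cell and regulator genes (Lgr6, Nfatc1, Foxn1, Hoxc13 and Msx2). Krt32, a hair cuticle keratin, fell from 11.3 ± 4.04 to 1.32 ± 0.660 CPM (-3.07 ± 0.35). Krt31 and Krt33a, keratins of the hair cortex, fell too (-3.55 ± 0.92 and -3.58 ± 0.74). These values owed much to vehicle replicate 4, with 8.87 CPM of Krt31 against 0.7998 to 3.46 in the other vehicle libraries, and without it the log2 fold changes were -2.48 and -2.57, still called. The number of hair shaft genes called lower was 8 with no filter on low counts and 2 with the stricter filter.

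Of 10 tested inner root sheath and companion layer genes 2 were higher and 6 lower (median -1.10), beside 21.3% higher and 20.2% lower over all genes tested. Trichohyalin, Tchh, which hardens the inner root sheath, rose from 32.9 ± 28.1 to 712 ± 239 CPM (4.44 ± 0.54, adjusted p = 8.88e-05) and Krt75, the companion layer keratin, from 14.2 ± 4.76 to 124.5 ± 32.4 CPM (3.14 ± 0.26, adjusted p = 6.60e-06). Krt25 and Krt71, inner root sheath keratins, fell (-2.70 ± 0.70 and -2.50 ± 0.71). Without vehicle replicate 4, where they stood at 37.4 and 40.7 CPM against 3.95 to 13.7 in the others, the values were -1.70 and -1.57. A robust fit did not call Krt71 (adjusted p = 0.0515; range over all alternatives 0.000745 to 0.0515). Leaving out replicate 4 of either group took the number called lower to 3. Vehicle replicate 4 was also the highest vehicle library for 5 of the 10 stem cell and regulator genes (Lgr5, Lgr6, Lhx2, Nfatc1 and Sostdc1).

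**Figure D3:**
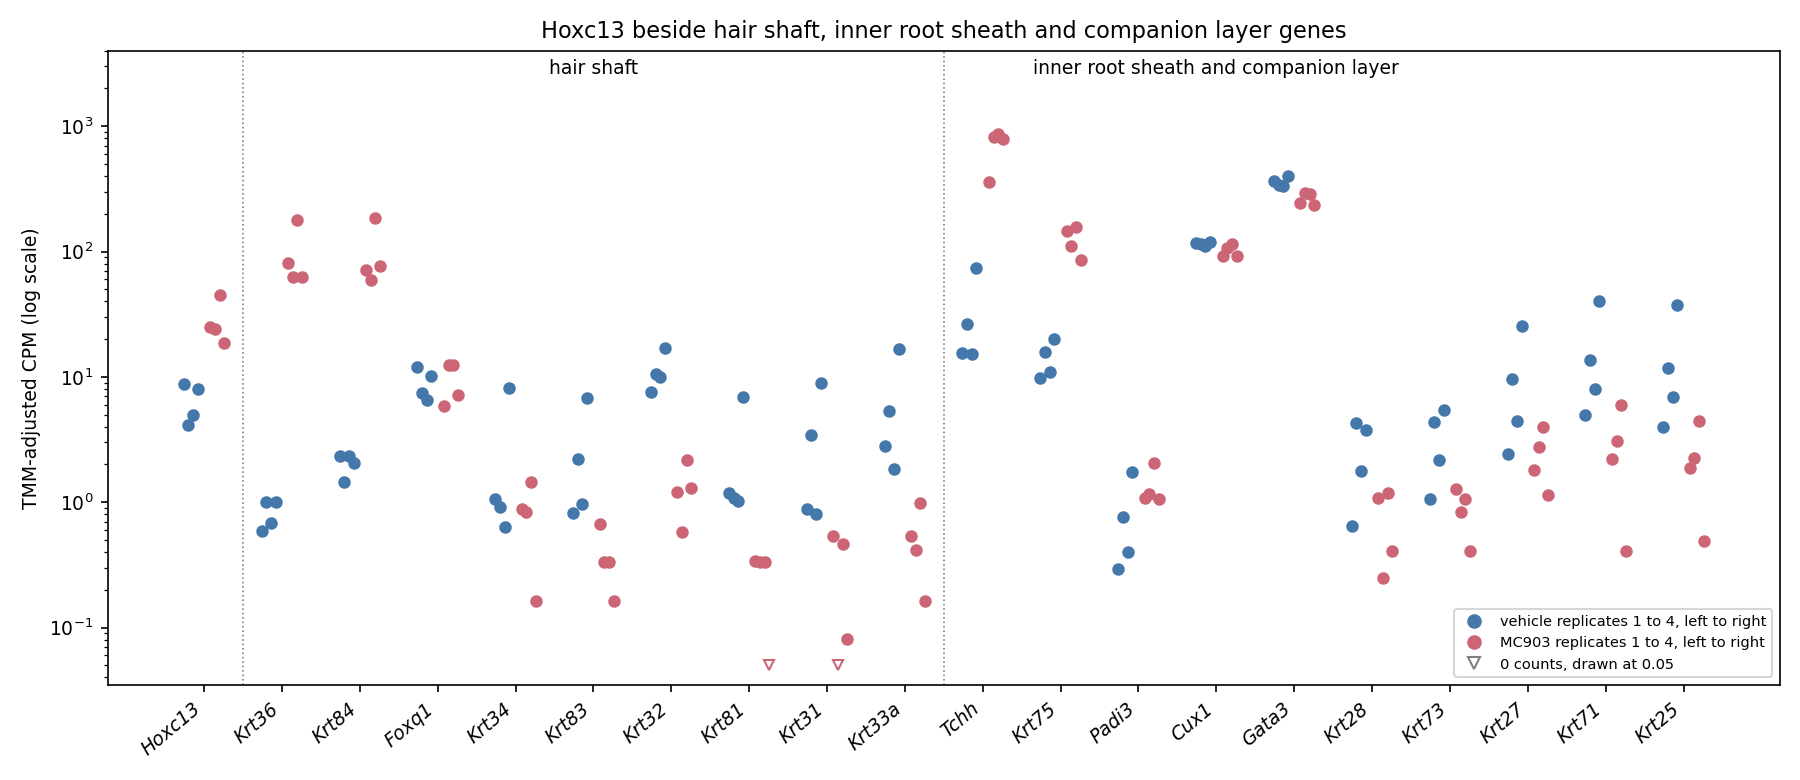
Points are TMM-adjusted CPM of single libraries on a log axis, for Hoxc13 and all tested genes of the hair shaft list and of the inner root sheath and companion layer list; vehicle (blue) and MC903 (red) replicates run from left to right, and open triangles are libraries with 0 counts. Krt36, Krt84, Tchh and Krt75 rose with Hoxc13, while Krt31, Krt33a and Krt32 fell and vehicle replicate 4 stood highest among the vehicle libraries for each of these 3.

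The R-spondin and Wnt list, the pathway that Lgr receptors feed, moved downward. Of 17 tested genes 11 fell and none rose, where 20.2% of all genes tested were called lower and 21.3% higher. All 17 log2 fold changes were below 0 (median -0.70, beside -0.03 over all genes tested). Rspo3, an R-spondin ligand, fell from 15.4 ± 1.89 to 5.02 ± 0.937 CPM (-1.61 ± 0.17, adjusted p = 3.25e-05). Znrf3, the ubiquitin ligase that Lgr receptors and R-spondins hold in check, fell by 0.74 on the log2 scale (SE 0.16). Wnt target genes were among those lower, with the feedback inhibitors Nkd2 (37.3 ± 4.06 to 13.8 ± 2.48 CPM, -1.44 ± 0.15, adjusted p = 3.00e-05), Nkd1 (-1.72 ± 0.31), Axin2 (25.1 ± 2.20 to 12.1 ± 1.87 CPM, -1.05 ± 0.14) and Notum (-0.99 ± 0.25). The R-spondin Rspo1 (-0.73 ± 0.25), the ubiquitin ligase Rnf43 (-0.46 ± 0.15) and the transcription factor Lef1 (-0.70 ± 0.24) were called lower with less support. They were not called under 4, 8 and 6 of the 17 alternatives, with adjusted p up to 0.103, 0.0718 and 0.110. The number called lower was 7 without vehicle replicate 1 or without MC903 replicate 4. Rspo2 and Dkk1 were too low to test.

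Other markers of the stem cell compartment were split. Of 18 tested genes 9 fell and 4 rose (median -0.49), beside 20.2% lower and 21.3% higher over all genes tested. Krt15, a keratin of bulge and basal cells, fell from 3061 ± 912.5 to 563.8 ± 216.6 CPM (-2.44 ± 0.31, adjusted p = 0.000114), Wif1, a secreted Wnt inhibitor, from 960 ± 300.4 to 298.0 ± 43.7 CPM (-1.69 ± 0.23), and the bulge transcription factors Sox9 (-0.72 ± 0.21, adjusted p = 0.0157) and Tcf7l1 (-0.78 ± 0.18, adjusted p = 0.00492) also fell. Gli1, a target of hedgehog signals, fell by 1.22 on the log2 scale (SE 0.36, adjusted p = 0.0179), and missed the threshold once vehicle replicate 4 was left out (-0.91, adjusted p = 0.0542). Cdh3, P-cadherin of the hair germ and matrix, rose from 21.0 ± 3.32 to 44.4 ± 3.78 CPM (1.08 ± 0.14), as did Plet1, a marker of the upper follicle (1.73 ± 0.27), and Runx1 (0.86 ± 0.19). No gene of this list was at 0 in all 4 libraries of either group. In the same whole-ear libraries 6 of 7 tested cartilage markers were lower and 7 of 7 macrophage markers higher. The part of such cells in the levels of Sox9 and Runx1 was not tested.

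**Figure D4:**
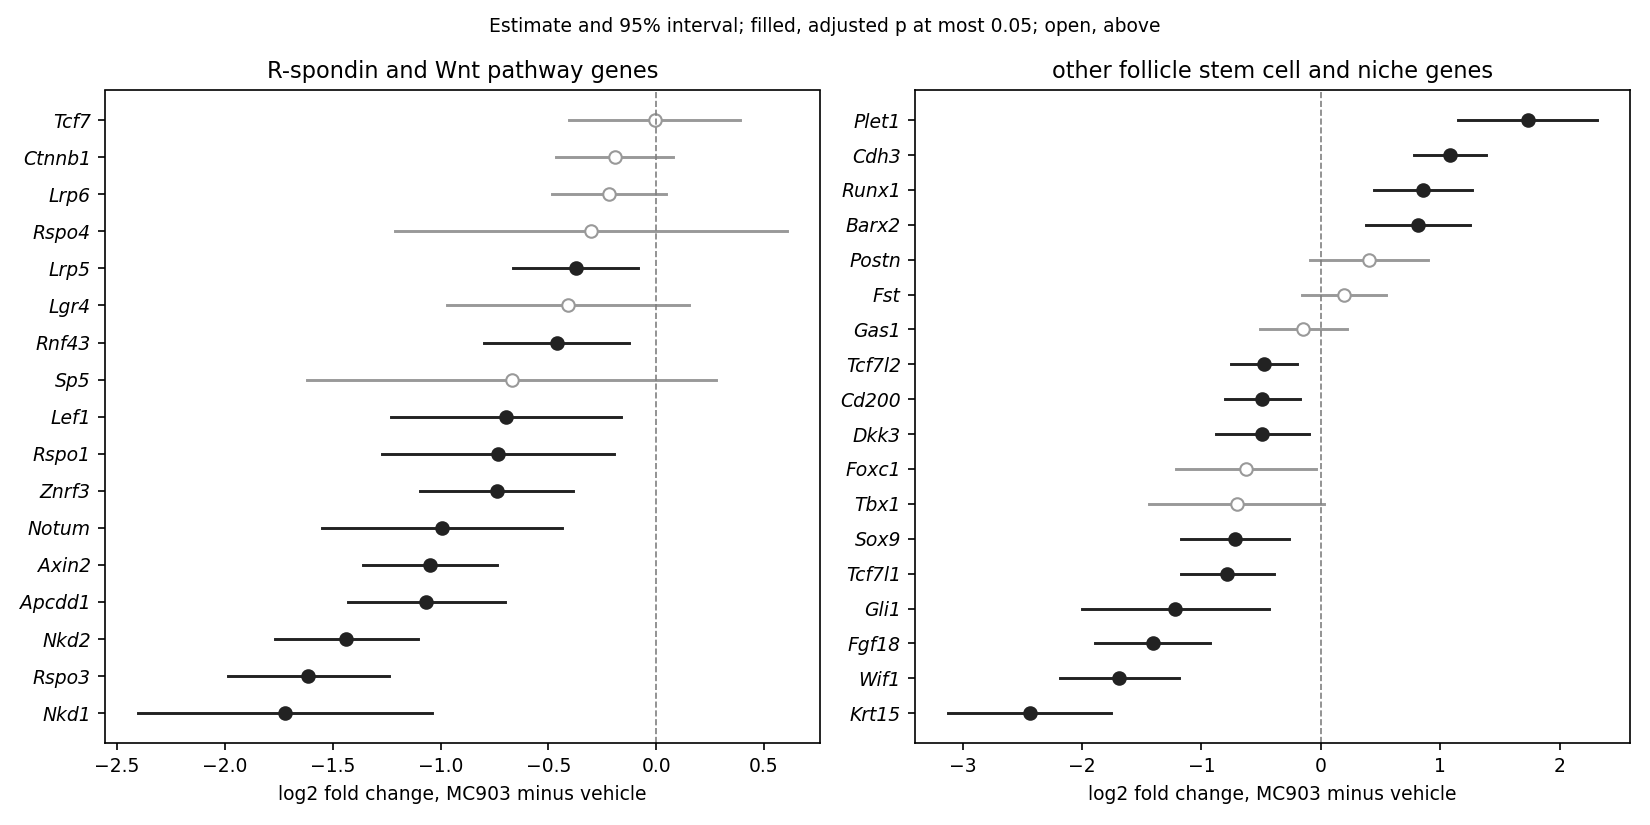
Log2 fold changes (MC903 minus vehicle, horizontal axis) with 95% intervals are drawn for all tested genes of the R-spondin and Wnt list (left) and of the other follicle stem cell and niche list (right); filled points passed an adjusted p of 0.05. The left panel has 11 filled points, all below 0, and the right panel 9 below and 4 above 0.

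Of 18 BMP pathway genes, the pathway of Sostdc1 and Msx2, 4 were called higher and 4 lower (median -0.12), shares close to the 21.3% and 20.2% over all genes tested. Id1, a direct target of BMP signals, rose from 112 ± 10.1 to 177.2 ± 24.3 CPM (0.66 ± 0.13, adjusted p = 0.00239), and the receptor Bmpr1b fell (-0.99 ± 0.24, adjusted p = 0.00701), as did Bmp6 (-1.05 ± 0.26) and the pseudoreceptor Bambi (-0.82 ± 0.21). The ligand Bmp2 (0.75 ± 0.25, adjusted p = 0.0343) and the antagonist Nog (-1.16 ± 0.40, adjusted p = 0.0380) were not called under 7 and 6 of the 17 alternatives, with adjusted p up to 0.0935 and 0.112. Leaving out vehicle replicate 2 gave 2 higher, and leaving out vehicle replicate 3 or MC903 replicate 2, or scaling by library sizes alone, gave 1. Calcineurin and NFAT genes, the partners of Nfatc1, had none higher and 2 of 10 lower, a share close to the 20.2% over all genes tested. They were Nfat5 (-0.63 ± 0.17, adjusted p = 0.0102) and Ppp3cc (-0.46 ± 0.16, adjusted p = 0.0375), the latter not called without any 1 of the 8 libraries (adjusted p = 0.0569 to 0.0937; 0.0214 to 0.105 over all alternatives). Among 5 tested ErbB receptor and Lrig genes, Lrig3 was lower and Erbb3 higher (0.34 ± 0.13, adjusted p = 0.0496). Erbb3 was not called under 14 of 17 alternatives (adjusted p = 0.0247 to 0.373). The 3 that kept the call were the absence of MC903 replicate 4, DESeq2 size factors and DESeq2 itself.

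Of 12 tested dermal papilla genes, the mesenchymal cells that instruct the follicle, 3 were higher and 1 lower (median 0.12). Over all genes tested 21.3% were called higher and 20.2% lower. Corin fell from 82.1 ± 15.7 to 24.1 ± 9.20 CPM (-1.77 ± 0.26, adjusted p = 0.000318) and Sox18, which endothelium also makes, rose by 1.21 ± 0.20. Leaving out MC903 replicate 4 gave 3 lower, and leaving out vehicle replicate 1, 2 or 4 or MC903 replicate 2 gave 2. Among hair germ and hair cycle signals 2 of 10 were higher and 4 lower (median -0.35), beside the same 21.3% and 20.2%. The ligand Wnt10a rose from 7.27 ± 1.496 to 14.8 ± 1.59 CPM (1.02 ± 0.17, adjusted p = 0.000666) and Stat3 by 0.79 ± 0.12, whereas the ligand Wnt10b fell from 1.32 ± 0.214 to 0.261 ± 0.172 CPM (-2.31 ± 0.42, adjusted p = 0.00118). Relatives of the 10 genes had 2 of 10 lower, Lrig3 and Msx1, and none higher, or 1 higher without MC903 replicate 1. Their share called lower was close to the 20.2% over all genes tested.

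Per kilobase of exon, a scale on which genes can be ranked (RPKM, TMM-adjusted), Cd34 was the most abundant of the 10 in vehicle skin at 79.1 ± 11.1, followed by Sostdc1 at 53.6 ± 10.8 and Lgr6 at 20.1 ± 2.24. The values of Cd34 and Sostdc1 overlapped between libraries, and Lgr6 stood apart from both neighbours. Nfatc1 (7.54 ± 1.45), Lrig1 (5.70 ± 0.616), Foxn1 (4.77 ± 1.21), Hoxc13 (2.62 ± 0.909), Lhx2 (1.62 ± 0.603), Msx2 (1.37 ± 0.286) and Lgr5 (1.26 ± 0.314) followed, each overlapping with the next. In MC903 skin Sostdc1 (73.4 ± 3.66) stood above Cd34 (54.3 ± 8.95), and Hoxc13 (11.4 ± 4.66) came next, apart from its neighbours. Lgr6 (5.93 ± 0.423) then lay among Nfatc1 (6.27 ± 0.753) and Foxn1 (5.42 ± 1.25). Lrig1 (3.44 ± 1.13) was above Msx2 (0.867 ± 0.318), Lhx2 (0.859 ± 0.0944) and Lgr5 (0.754 ± 0.318), which overlapped with each other.

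Markers of the tissue that surrounds the follicle were counted in the same way. Of 6 basal epidermis markers 1 was higher and 1 lower, with a summed level of 4110 to 4619 CPM in vehicle and 8807 to 10371 CPM in MC903 libraries. Of 6 suprabasal markers 1 was higher and 1 lower, at 8266 to 10379 and 9599 to 12943 CPM. A summed level is carried by the most abundant genes of a list. The median log2 fold change was -0.08 for the basal list, with 3 of 6 below 0, and -0.37 for the suprabasal list, with 4 of 6 below 0. All 6 Schwann cell markers and 6 of 7 tested cartilage markers were lower, and 3 of 8 skeletal muscle markers were. No marker of these lists was at 0 in either group, and the part of any of these changes in the levels of the 10 genes or of the other named genes was not tested. Vehicle replicate 2 held salivary gland transcripts at 380244 CPM summed over 7 markers, against 201.4 to 473.1 CPM in the other 7 libraries. Without it Lgr6, Lhx2, Lrig1, Cd34 and Hoxc13 were still called, and Sostdc1 was not (adjusted p = 0.0564). The log2 fold change of Sostdc1 was 0.47 without that library and 0.45 with all 8.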

How the data were processed

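Bulk RNA of whole mouse ear skin was depleted of ribosomal RNA and sequenced as single reads of 50 bases, per the labels' protocols. Per the submitters' processing notes, STAR 2.0.4b, Subread and featureCounts 1.4.5 were used with mm10. The authors deposited 1 table per library with raw counts, CPM and RPKM for 41388 genes. The deposited CPM and RPKM follow from the counts and exon lengths to within 2.33e-10.

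Counts were tested with edgeR 4.0.16 (R 4.3.3; quasi-likelihood F-test, TMM factors, filterByExpr, Benjamini-Hochberg adjustment over 16105 genes, threshold 0.05), 4 libraries against 4. The code was tested on simulated counts. Libraries of a group were taken as separate mice, as the series design gives 4 mice per group. The smallest library held 12310466 counts. Ratios of counts used two-sided exact permutation tests and were chosen after seeing the data. Alternatives covered scaling, filters, DESeq2 1.42.0, limma-voom (limma 3.58.1), a robust fit, a replicate block and leaving out each library.

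The members and lists were chosen with earlier results of these data known. Text names the 10 genes, Cyp24a1 and the 2 genes of smallest p per pathway list. The others (Lgr4, Lrig2, Msx1, Rspo1, Znrf3, Rnf43, Lef1, Axin2, Nkd1, Notum, Wif1, Sox9, Tcf7l1, Gli1, Plet1, Runx1, Bmp2, Bmp6, Nog, Bambi, Krt31, Krt32, Krt33a, Krt25, Krt71 and Wnt10b) were chosen after their values were seen, unless that rule also names them.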

Additional observations from a re-analysis of the deposited data

Results flagged for a closer look

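Of 110 groups of 4 libraries checked for a single value far from the rest (Dixon's test at the 95% level), 6 were singled out, where chance alone gives about 1 in 20. None was a group of the 10 stem cell and regulator genes. MC903 replicate 3 stood high for Krt36, at 177.8 CPM against 62.1 to 81.03 in the other MC903 libraries, and for Krt84, at 185.0 against 58.99 to 76.9 CPM. MC903 replicate 1 stood low for Tchh, at 357.1 against 796.5 to 871.8 CPM, and high for Nkd2, at 17.5 against 12.2 to 12.8 CPM. MC903 replicate 4 stood high for Krt15, at 884.3 against 407.3 to 488.2 CPM, and for Bmp6, at 1.22 against 0.750 to 0.810 CPM.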

How the results depend on the processing

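The number of the 10 genes called higher was 2, and 1 with library sizes alone, with upper quartile factors and with a replicate block; leaving out 1 library gave 1 to 2. The number called lower ran from 3 to 5. Lgr6, Lhx2 and Hoxc13 kept their call in all 17 alternatives, and none of the 10 genes changed sign. Of the other named genes Lrig2, not called at 0.073, turned to -0.015 with library sizes alone and to -0.054 without MC903 replicate 1, with 0.223 as the highest value on leaving out 1 library. Lgr5 was called with library sizes alone (adjusted p = 0.0278), upper quartile factors (0.0311), no filter (0.0307), DESeq2 (0.0298), limma-voom (0.0348) and the replicate block (0.0141). Over all genes 5389 (library sizes alone) to 7072 (without MC903 replicate 1) were called. The cause of these differences was not tested.

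Replicate numbers did not pair the libraries: deviations of same-numbered libraries correlated at 0.057, -0.139, -0.118 and -0.204, and no library correlated best with its own number. The replicate block called 5705 genes against 6682, with 1 of the 10 genes higher and 5 lower; Sostdc1 was then at an adjusted p of 0.0520. Leaving out a library leaves the count ratios unable to reach a p below 0.0571. Depth limits Msx2 most, at 22 to 96 counts per library.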
